A study of Mus musculus with 67 samples.

Results

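The alpha-defensins of Paneth cells were examined through 10 genes, Defa2, Defa3, Defa5, Defa17, Defa20, Defa21, Defa22, Defa24, Defa26 and Defa30. The genes were chosen by name, as 10 of the 22 rows whose symbol starts with Defa in a deposited table of 29579 rows, and were read singly and as the sum of their values in each library. Bulk RNA-seq libraries of mouse small intestine made up the series, with 49 libraries of organoids in 10 culture conditions and 18 libraries of isolated crypts in 9 groups. Values were TPM, a length-scaled transcript abundance, from which the sequencing depth behind a value cannot be read.

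Organoids are epithelial cultures grown from crypts in Matrigel, and ENR is the standard medium, with Noggin at 100 ng/mL, R-Spondin 1 at 500 ng/mL and EGF at 50 ng/mL. The 8C medium combined EGF (50 ng/mL), FGF2 (called bFGF, 20 ng/mL) and R-Spondin 1 conditioned medium (10%) with 5 small molecules. These were the BMP receptor inhibitor LDN193189 at 0.2 μM, GSK-3 Inhibitor XV (GSK3i) at 0.1 μM, Pexmetinib (Pex) at 1 μM, EPZ6438 at 2 μM and VPA at 500 μM. VPA, valproic acid, inhibits histone deacetylases, and EPZ6438 inhibits the histone methyltransferase EZH2. The conditions 8C -V, 8C -E and 8C -VE lacked VPA, EPZ6438 or both, 8C -EGF, 8C -bFGF, 8C -GSK3i and 8C -Pex each lacked the named factor, and ENR +VE was ENR with VPA and EPZ6438 added, at concentrations not given in the sources used here. There were 7 libraries each of ENR, 8C, 8C -VE and 8C -E, 6 of 8C -V and 3 of each other condition. Crypts came from unirradiated mice (normal crypt) and from mice 1, 2, 3 or 5 days after irradiation (IR), without or with VPA and EPZ6438 (+VE), with 2 libraries in each group. The irradiated mice were 8-week-old females given a single dose of 12 Gy, and +VE mice were gavaged daily with 40 mg/kg VPA and 0.6 mg/kg EPZ6438. They were C57BL/6 mice. Mice of 6 to 12 weeks gave crypts for organoids, and the strain behind the organoid libraries is not given in the sources used here. Organoids lack the stroma, immune cells and microbes that surround a crypt, and the crypts were released by EDTA and filtered, not sorted. The labels do not say which libraries came from separate cultures or animals. Figure legends of the publication count 2 mice for crypts on day 3 and 3 mice for organoid expression profiles, and how groups of 6 or 7 organoid libraries map to mice is not given in the sources used here. The p-values therefore measure the spread between these libraries, and some libraries of a group may share a mouse.

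Paneth cells sit at the base of small intestinal crypts and release granules of antimicrobial proteins into the crypt lumen. Alpha-defensins, called cryptdins in the mouse, are the most varied of these products. They are made as precursors, with a signal peptide, an acidic pro-segment and a short basic peptide held by disulfide bonds, and in the mouse the matrix metalloproteinase Mmp7 cuts the active peptide free. Paneth cell maturation depends on Wnt signals, and the Wnt effector Tcf4, encoded by Tcf7l2, binds the promoters of cryptdin genes. In a bulk library, fewer Paneth cells and less defensin RNA in each Paneth cell cannot be told apart.

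All 10 genes lie on the plus strand of chromosome 8 in GRCm38, the build called mm10 in the submitters' processing notes, between Defa21 at its start of 21025545 and Defa24 at its end of 21735471. In this span of 710 kb they stand among close relatives. The GENCODE annotation lists 39 genes and pseudogenes named Defa in all. Each of the 10 is a gene of 2 exons, and the end of each coding sequence, shown here because it holds the mature peptide and much of what separates the members, lies in exon 2. Capitals mark the 6 cysteine codons that form the disulfide bonds. The sequences are GENCODE transcripts read 5′ to 3′, and each ends with its stop codon.
Defa21, chr8:21026319-21026423: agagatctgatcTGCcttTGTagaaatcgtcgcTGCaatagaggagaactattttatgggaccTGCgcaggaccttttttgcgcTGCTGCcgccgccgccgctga
Defa22, chr8:21163051-21163155: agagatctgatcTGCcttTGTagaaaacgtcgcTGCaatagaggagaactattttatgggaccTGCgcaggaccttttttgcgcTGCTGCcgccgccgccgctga
Defa2, chr8:21379298-21379402: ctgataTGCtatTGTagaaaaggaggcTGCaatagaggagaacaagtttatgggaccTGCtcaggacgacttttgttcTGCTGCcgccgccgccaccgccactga
Defa5, chr8:21298177-21298281: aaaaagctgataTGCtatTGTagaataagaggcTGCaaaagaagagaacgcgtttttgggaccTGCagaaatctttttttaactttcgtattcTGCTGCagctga
Defa3, chr8:21288179-21288283: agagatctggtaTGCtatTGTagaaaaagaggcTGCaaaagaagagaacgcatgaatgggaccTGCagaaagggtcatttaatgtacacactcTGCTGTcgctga
Defa30, chr8:21135399-21135503: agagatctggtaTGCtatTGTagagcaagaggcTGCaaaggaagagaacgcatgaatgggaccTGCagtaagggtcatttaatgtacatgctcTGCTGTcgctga
Defa24, chr8:21735273-21735377: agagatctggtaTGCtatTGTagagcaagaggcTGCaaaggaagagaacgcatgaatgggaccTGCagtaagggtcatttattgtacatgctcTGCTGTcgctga
Defa26, chr8:21618778-21618882: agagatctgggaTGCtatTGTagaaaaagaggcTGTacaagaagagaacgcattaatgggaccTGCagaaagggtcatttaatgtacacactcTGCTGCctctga

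Defa20 has the same coding end as Defa2, and Defa17 the same as Defa3. Over the 45 pairs of members, coding sequences were 80.9% to 100% identical, with a median of 83.3%. Defa3 and Defa17 were identical over all 282 coding bases, Defa2 and Defa20 differed at 1 position, Defa21 and Defa22 at 2, and Defa24 and Defa30 at 4. Defa3, Defa17, Defa24, Defa26 and Defa30 formed one sequence set, with 89.4% to 100% identity over its 10 pairs. Defa2, Defa20, Defa21 and Defa22 formed another, with 89.6% to 99.7% over its 6 pairs. Across these sets identity was 80.9% to 83.7% over 20 pairs, and Defa5 was 80.9% to 85.5% identical to every other member.

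This likeness bears on which reads can be given to a single gene. Of all 150-base windows of each member's transcript, 100% in Defa2, 99.6% in Defa20, 88.7% in Defa17, 84.3% in Defa3 and 69.2% in Defa5 were also present in another gene's transcript. The share was 10.8% in Defa21 and 10.7% in Defa22, and no window of Defa24, Defa26 or Defa30 was shared. How reads that fit several genes were counted is not given in the sources used here, so single values of Defa2, Defa20, Defa3, Defa17 and Defa5 are uncertain where their relatives are also transcribed. All shared windows of Defa3 and Defa17 were shared within this pair and those of Defa21 and Defa22 within theirs, so the sum over members holds both genes. The windows of Defa5 were shared with Defa34, Defa36 and Defa37, and those of Defa2 and Defa20 also with Defa32 and Defa33, which lie outside the sum.

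The promoter table of RefSeq for GRCm38.p6 held 5 of the members, and the 160 bases before the start of transcription are shown for 3 of them because the Wnt effector's letters fall there. Capitals mark ATCAAAG, the letters bound by Tcf proteins, and TATAAA, the TATA box. Both were searched on both strands (as CTTTGAT and TTTATA in reverse) over 300 bases, 250 before and 50 after the start.
Defa21, chr8:21025385-21025544: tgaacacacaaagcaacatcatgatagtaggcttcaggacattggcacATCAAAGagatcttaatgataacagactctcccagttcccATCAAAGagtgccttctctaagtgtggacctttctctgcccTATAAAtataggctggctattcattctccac
Defa2, chr8:21378357-21378516: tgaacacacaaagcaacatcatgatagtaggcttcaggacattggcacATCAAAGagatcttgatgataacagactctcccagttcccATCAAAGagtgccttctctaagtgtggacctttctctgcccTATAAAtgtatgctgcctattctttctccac
Defa30, chr8:21134490-21134649: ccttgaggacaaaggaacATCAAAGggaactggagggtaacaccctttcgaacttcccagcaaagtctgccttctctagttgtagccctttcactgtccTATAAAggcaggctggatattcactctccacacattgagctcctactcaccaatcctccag

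Defa22 has the same promoter as Defa21, and Defa20 the same as Defa2, and over 300 bases these 2 sequences were 97.7% identical. In all 4 of these genes ATCAAAG begins 112 and 72 bases before the start and TATAAA 31 bases before it. Defa30 has 1 ATCAAAG, 142 bases before its start, and TATAAA 61 bases before. Of 32851 promoters of the same length, 3.73% held ATCAAAG on either strand and 0.1% held it 2 or more times, while 13.6% held TATAAA. Of the 16 Defa promoters in the table, 13 held ATCAAAG, 9 of them 2 or more times, and 15 held TATAAA. A match of letters is a description and does not show a site in use. Defa3, Defa5, Defa17, Defa24 and Defa26 had no entry.

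Alpha-defensin RNA was far lower in 8C-organoids than in ENR-organoids. The summed level of the 10 genes was 11241 ± 1330 TPM in ENR (SD, n = 7), ranging from 9306 to 12854, and 916 ± 521 TPM in 8C (n = 7), from 162 to 1889. No 8C library reached the lowest ENR library, and the mean was 12.3-fold lower. The members themselves differed widely in level. In ENR, Defa24 was the highest at 5011 ± 850 TPM, followed by Defa30 at 2413 ± 310, and Defa3 was the lowest at 68.6 ± 18.3.

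Ordered by mean, the other conditions lay between ENR and 8C. After ENR came 8C -VE with 6099 ± 2057 TPM (n = 7), 8C -EGF with 3904 ± 354 (n = 3), 8C -V with 3599 ± 616 (n = 6) and ENR +VE with 3599 ± 196 (n = 3). Then came 8C -E with 2033 ± 953 (n = 7), 8C -Pex with 1662 ± 405, 8C -GSK3i with 1401 ± 160 and 8C -bFGF with 1071 ± 87 (n = 3 each), and last 8C. Ranges of neighbours in this order overlapped, other than those of 8C -GSK3i and 8C -bFGF, which were apart. The sum has no p-value, since the genes were chosen with results of these data known.

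**Figure D1:**
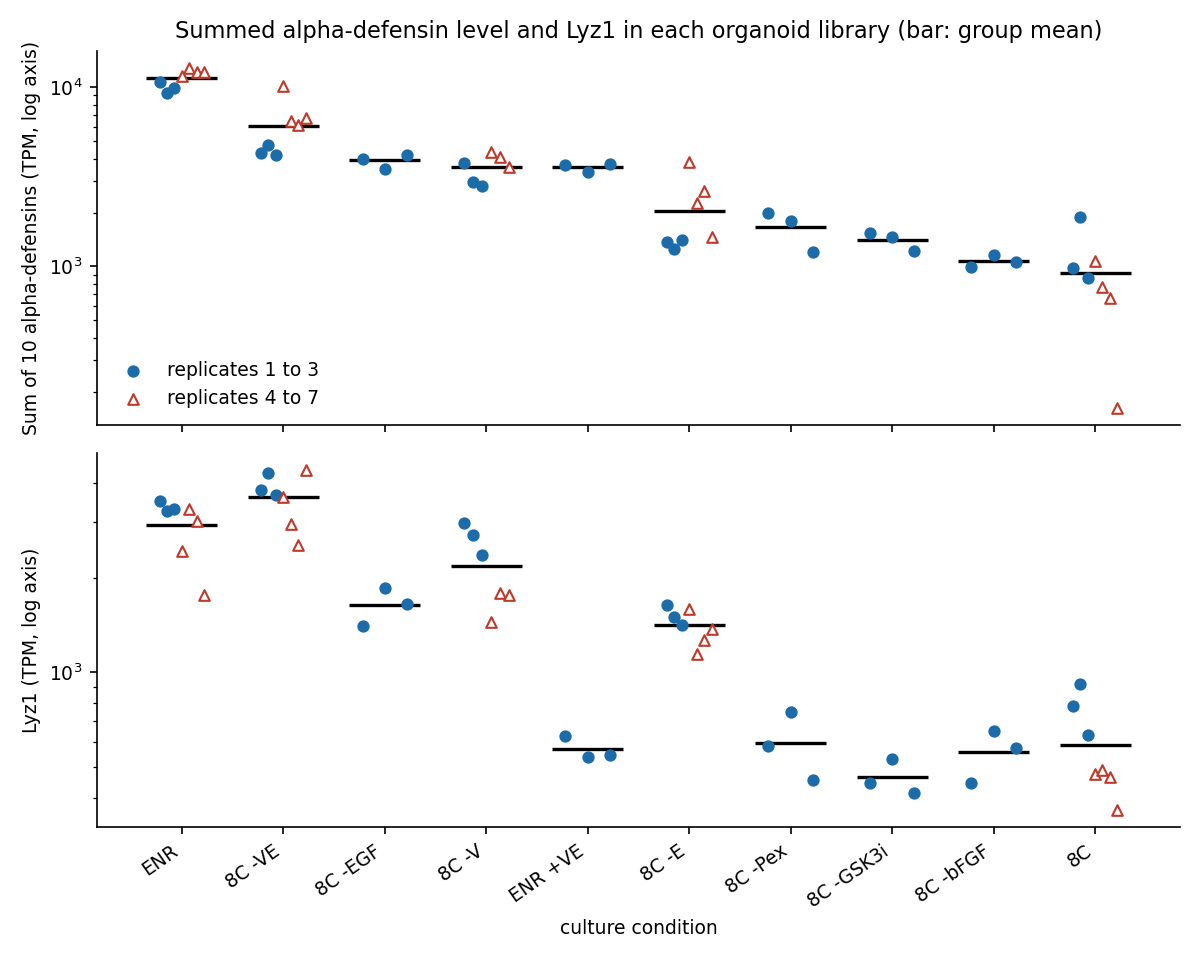
Summed TPM of the 10 alpha-defensins (top) and TPM of Lyz1 (bottom) in each of 49 organoid libraries by culture condition, on log axes. Points are libraries, by replicate number, and bars are group means. All 8C libraries, from 162 to 1889 TPM, lie below all ENR libraries, from 9306 to 12854.

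One library stands apart and replicate numbers matter. In replicate 7 of 8C the sum was 162 TPM, against 671 to 1889 TPM in the other 6, and Defa5, Defa20, Defa21, Defa22 and Defa3 were listed at 0 there. Mitochondrial genes made up 6.31% of this library, against 1.64% to 2.58% in the other 8C libraries. Replicate 7 also had the highest mitochondrial share of its group in ENR, 8C -VE and 8C -E, at 4.69%, 5.47% and 6.64%. The part of this share was not tested. In ENR, 8C -E and 8C -VE, all of replicates 1 to 3 were lower than all of replicates 4 to 7, while in 8C the ranges overlapped. The sum was 1259 to 1407 TPM in 8C -E replicates 1 to 3 and 1455 to 3841 TPM in replicates 4 to 7, and 4166 to 4757 TPM against 6129 to 10110 TPM in 8C -VE. The labels do not say what the replicate numbers stand for, so counts of called members within each run of numbers are given beside the results. Organoid libraries summed to 983801 to 988144 TPM in all and crypt libraries to 819346 to 910935 TPM, with mitochondrial genes at 1.52% to 6.64% and 10.6% to 48.4% of the library. Organoid and crypt levels were therefore not tested against each other.

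The first comparison asks how the 8C medium as a whole differs from ENR, and all 10 members fell. Log2 fold changes of TPM + 1 ran from -6.85 in Defa21 to -3.18 in Defa24, with a median of -5.40, where the median of all genes tested was 0.08. By limma with Benjamini-Hochberg adjustment over 12665 genes, the adjusted p of the members was at most 0.000178. A gene is called here where the adjusted p lies under 0.05 and the levels differ 2-fold or more, and 3.31% of all genes were called lower. In all 10 members every 8C library lay below every ENR library, as did 3.37% of all genes. All 10 members passed the filter on low values, a mean of 1 TPM, in every comparison, and their lowest mean within 8C itself was 5.37 TPM, in Defa3. Within replicates 1 to 3 and within replicates 4 to 7, all 10 were called, with medians of -4.76 and -5.85. Without replicate 7 of 8C, all 10 were also called, with changes of -6.44 in Defa21 and -2.87 in Defa24.

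Defa21 ranged from 476 to 754 TPM in ENR, with a median of 686, and from 0 to 10.3 TPM in 8C, with a median of 6.57. The change was -6.85 ± 0.43 (SE, adjusted p = 3.19e-09, limma). Defa22, which differs from it at 2 coding positions, went from a median of 681 TPM to 9.23 TPM, a change of -6.60 ± 0.45 (adjusted p = 7.36e-09). Defa2, at 297 to 541 TPM in ENR, lay at 1.18 to 10.3 TPM in 8C. These genes were near the floor of the table in every 8C library. Defa24, the most abundant, kept 148 to 1294 TPM in 8C against 4093 to 6536 TPM in ENR, and changed by -3.18 ± 0.33 (adjusted p = 1.14e-06). Defa17 went from 605 to 778 TPM in ENR to 6.35 to 297 TPM in 8C, a change of -3.26 ± 0.55 (adjusted p = 0.000178). Defa30, the second most abundant, went from a median of 2332 TPM to 101.2 TPM.

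**Figure D2:**
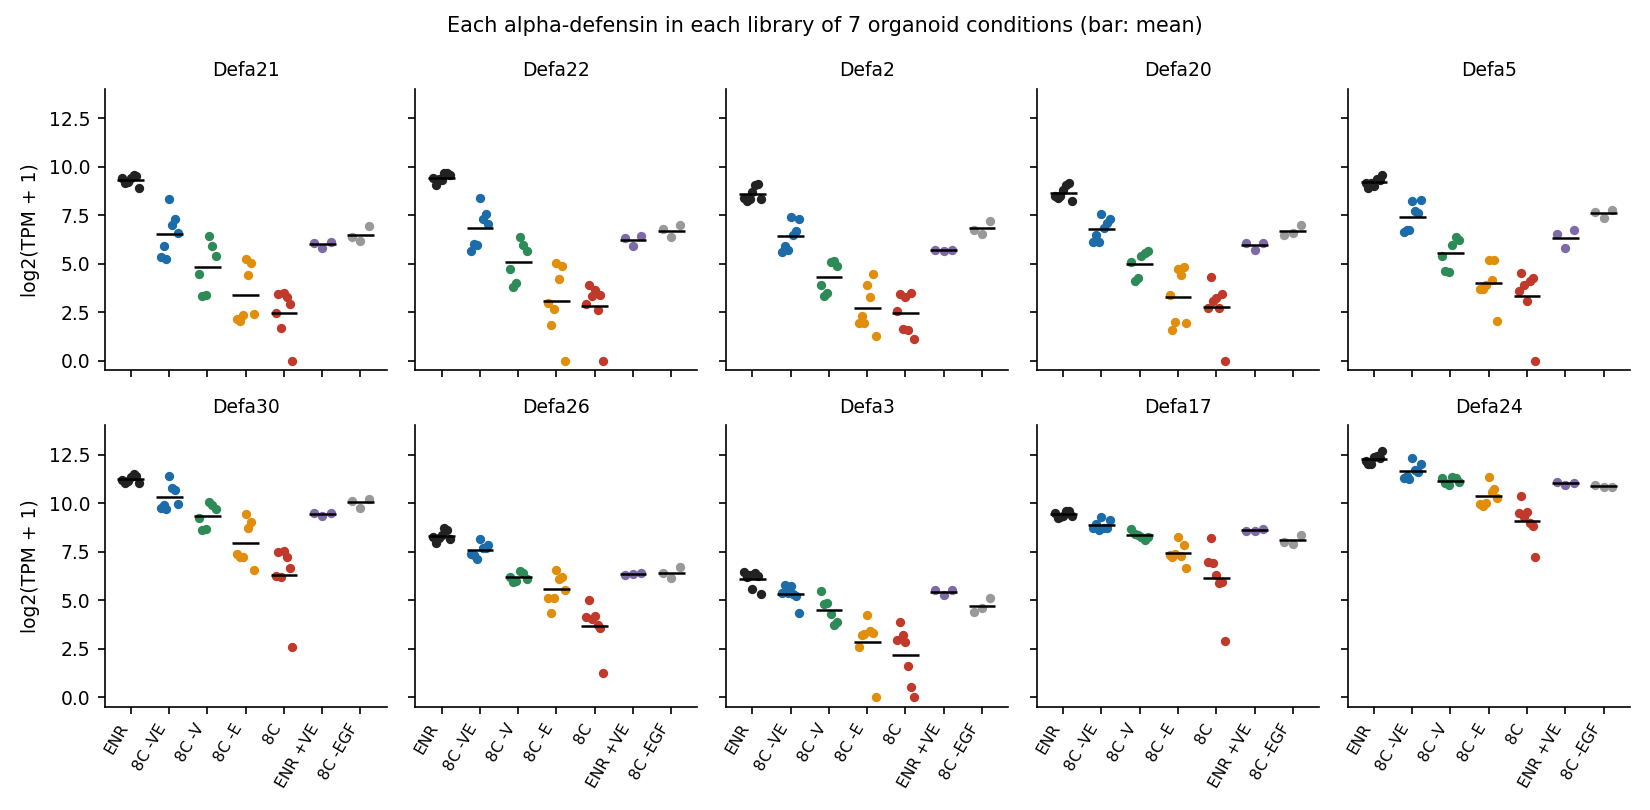
Log2(TPM + 1) of each of the 10 alpha-defensins in each library of 7 organoid conditions, with bars at the mean, ordered by the change between 8C and ENR. In 8C, Defa21 lies between 0 and 10.3 TPM and Defa24 between 148 and 1294 TPM.

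In 8C without VPA and EPZ6438, 5 members were lower than in ENR and the other 5 differed by less than 2-fold. Against a background of 2.07% of 11990 genes called lower, Defa21 fell by 2.79 on the log2 scale, Defa22 by 2.59, Defa2 by 2.13, Defa20 by 1.87 and Defa5 by 1.80. Their adjusted p values were between 0.000135 and 0.000522 (limma, n = 7 each), and in all 5 the ranges of 8C -VE and ENR were apart, as they were for 1.18% of all genes in this direction. Defa3, Defa17, Defa24, Defa26 and Defa30 changed by -0.54 to -0.93, with adjusted p of 0.00625 to 0.0393, and were not called because of the 2-fold minimum. Without that minimum all 10 were called. Within replicates 1 to 3, 6 members were called, and within replicates 4 to 7, 5 were.

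The 5 members past the minimum were Defa5 and the sequence set of Defa2, Defa20, Defa21 and Defa22, and the 5 others were the sequence set of Defa3, Defa17, Defa24, Defa26 and Defa30. These sets were drawn after the values were seen and were not tested. Defa21 had a median of 93.4 TPM in 8C -VE, from 36.4 to 318, against 686 TPM in ENR. Defa24 had a median of 3089 TPM, from 2449 to 5127, against 5066 TPM in ENR, and its ranges overlapped.

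The make-up of the sum shifted accordingly. Defa2, Defa5, Defa20, Defa21 and Defa22 together made up 24.4 ± 1.77% of the 10-gene sum in ENR (SD, n = 7), 10.2 ± 2.57% in 8C -VE, 4.84 ± 2.19% in 8C -V, 2.88 ± 1.54% in 8C -E and 4.2 ± 2.19% in 8C. They made up 9.18 ± 1.06% in ENR +VE and 15.5 ± 1.81% in 8C -EGF (n = 3 each). Every ENR library, at 21.3% to 26.7%, lay above every library of the other conditions given here, the highest of which was 17.5%. Defa24 alone made up 44.5 ± 4.23% of the sum in ENR and 72.4 ± 8.84% in 8C.

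**Figure D3:**
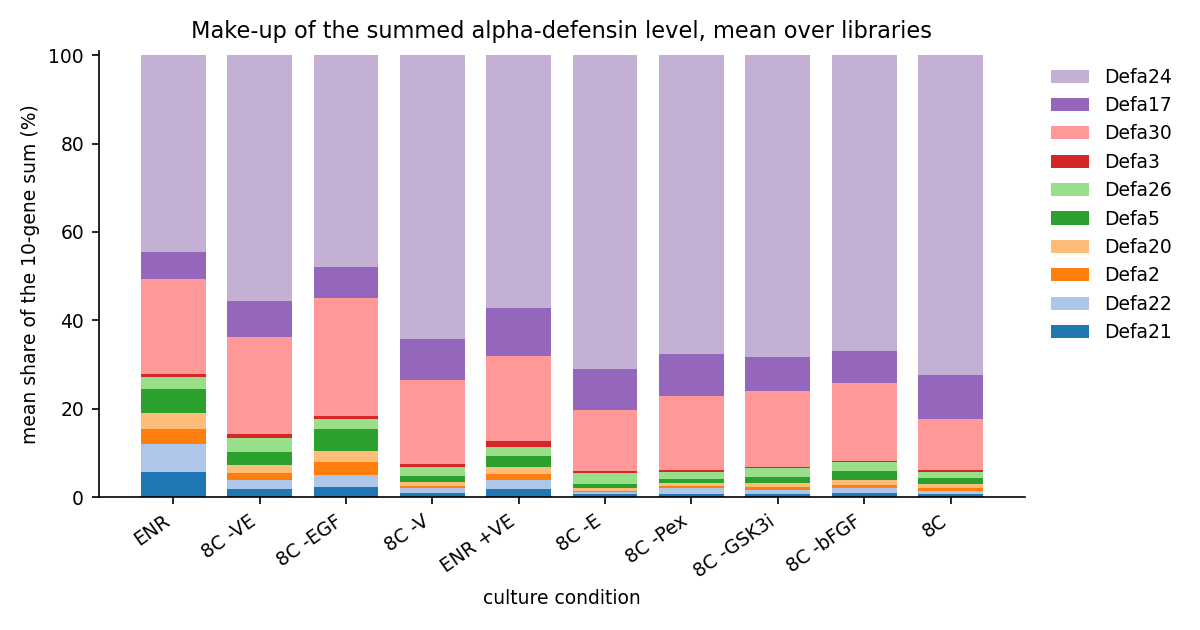
Mean share of each alpha-defensin in the summed level (%), for the 10 organoid conditions in order of the summed level. The share of Defa24 is 44.5% in ENR and 72.4% in 8C, and the 5 genes stacked lowest make up 24.4% in ENR and 4.2% in 8C.

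With VPA and EPZ6438 present in otherwise the same medium, all 10 members fell. In 8C against 8C -VE the changes ran from -4.06 in Defa21 to -2.57 in Defa24, with a median of -4.00 and adjusted p of at most 0.00151 by limma, where 1.62% of 12622 genes were called lower. The ranges of both conditions were apart for all 10, and for 1.79% of all genes in this direction. The sum was 6.66-fold lower. Here Defa26 and Defa30 fell about as far as Defa21 on the log2 scale, by 3.90 and 4.02. Defa21 was near the floor of the table in 8C, which limits how far its value could fall. Without replicate 7 of 8C, and within replicates 1 to 3 or 4 to 7, all 10 were called. The comparisons of 8C with ENR and with 8C -VE share the 8C libraries.

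EPZ6438 and VPA were also present singly. In 8C -E, which has VPA without EPZ6438, all 10 members were lower than in 8C -VE, with a background of 1.07% called lower. The changes ran from -3.76 in Defa22 to -1.29 in Defa24, with a median of -2.79 and adjusted p of at most 0.00302 by limma, and for 8 members the ranges were apart, as for 0.932% of all genes in this direction. Within replicates 1 to 3 all 10 were called, and within replicates 4 to 7, 7 were. Defa2 had a median of 4.00 TPM in 8C -E, from 1.39 to 21.4, against 89.4 TPM in 8C -VE, from 48.3 to 166. Defa24 ranged from 910 to 2604 TPM in 8C -E and from 2449 to 5127 TPM in 8C -VE, and these ranges overlapped. Defa3 and Defa22 were listed at 0 in replicate 7 of 8C -E.

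In 8C -V, which has EPZ6438 without VPA, 4 members were called lower than in 8C -VE, where 0.261% of all genes were. They were Defa2 with -2.15, Defa5 with -1.88, Defa20 with -1.78 and Defa26 with -1.40, at adjusted p of 4.15e-05 to 0.00564 (limma). Libraries of the same replicate number deviated together here, and with the replicate number as a block 7 members were called. Within replicates 1 to 3, 6 members were called, and within replicates 4 to 7, 5 were. Defa21 and Defa22 changed by -1.72 ± 0.59 and -1.77 ± 0.51 (adjusted p = 0.138 and 0.0563, limma). Defa17 changed by -0.54 and Defa24 by -0.51. The median over members was -1.56.

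Against full 8C, all 10 members were higher in 8C -V, where VPA was absent, by 1.84 in Defa2 to 3.07 in Defa30 (median 2.23, adjusted p of at most 0.0290 by limma), with a background of 1.11% called higher. For 4 members the ranges were apart, and for 1.63% of all genes in this direction. Within replicates 1 to 3, 4 members were called with a median of 1.15, and within replicates 4 to 7 all 10 were, with a median of 3.16. With a pseudocount of 0.1 TPM fewer than 10 were called, and the count is given at the end. In 8C -E, where EPZ6438 was absent, 2 members were called higher than in 8C, with a background of 0.229%. These were Defa24 with 1.28 ± 0.36 (adjusted p = 0.0434) and Defa26 with 1.87 ± 0.46 (adjusted p = 0.0182, limma). Some other members were near the floor in both conditions, such as Defa3 and Defa22, listed at 0 in a library of each. The lack of a call says little about members at such levels. The median over members was 0.81, and -0.30 within replicates 1 to 3, where none was called, and 1.74 within replicates 4 to 7, where 2 were. Without replicate 7 of 8C, 1 member was called.

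The interaction of VPA and EPZ6438 asks whether the change with both differs from the sum of the single changes. No member was called by limma, where 0.581% of 12556 genes were and 478 had an unadjusted p under 0.05. Estimates ran from -0.78 in Defa24 to 1.87 ± 0.69 in Defa2, and the smallest adjusted p was 0.581.

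In ENR with VPA and EPZ6438 added, 8 of the members fell, against a background of 0.738% of 12324 genes called lower. The summed level was 3700, 3373 and 3724 TPM in the 3 libraries of ENR +VE, below all ENR libraries and 3.12-fold below their mean. Defa21 fell by 3.32 on the log2 scale, Defa22 by 3.22, Defa2 by 2.90, Defa5 by 2.87, Defa20 by 2.71, Defa26 by 1.98, Defa30 by 1.79 and Defa24 by 1.26, at adjusted p of at most 6.14e-05 by limma. Defa17 changed by -0.81 ± 0.10 (adjusted p = 9.84e-05), under 2-fold, and Defa3 by -0.64 ± 0.24 (adjusted p = 0.0885). For 9 members the ranges were apart, as for 4.5% of all genes in this direction. Against replicates 1 to 3 of ENR alone, and against replicates 4 to 7 alone, 8 members were called. This comparison and that of 8C -VE with ENR share the ENR libraries.

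**Figure D4:**
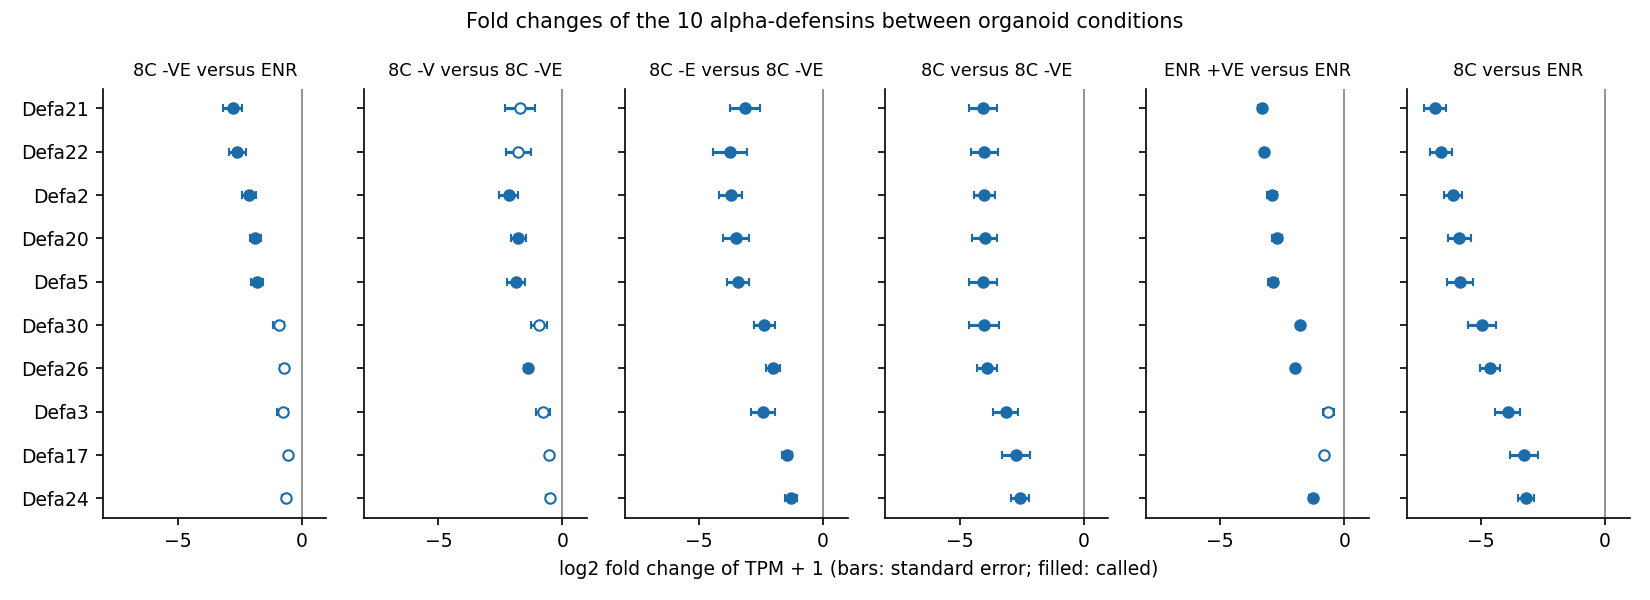
Log2 fold change of TPM + 1 for each alpha-defensin in 6 comparisons of organoid conditions. Bars are standard errors, and filled points are called members. The changes in 8C against ENR run from -6.85 to -3.18, and in 8C -VE against ENR 5 points are filled.

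Defensin levels in 8C were lower still than in ENR +VE. In 8C, 9 members were called lower, with a background of 2.43%, and changes ran from -3.53 in Defa21 to -1.92 in Defa24. Defa17 changed by -2.44 ± 0.81 (adjusted p = 0.126, limma). The ranges were apart for all 10 members, and for 5.38% of all genes in this direction. With replicates 1 to 3 of 8C alone, and with replicates 4 to 7 alone, 9 members were called. With a pseudocount of 0.1 TPM 3 members were called, and with the replicate number as a block fewer than 9 were. Without replicate 1 of ENR +VE, 2 members were called. Whether VPA and EPZ6438 act differently in ENR and in the 8C base was tested as a difference of changes, and no member was called, with a background of 0.58% and 811 genes at an unadjusted p under 0.05. The estimates were 0.74 to 2.51 towards a smaller fall in ENR, with a smallest adjusted p of 0.148 (limma).

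Defensin RNA was also higher in 8C without EGF. In 8C -EGF the sum was 3993, 3515 and 4205 TPM, 4.26-fold above the mean of 8C and above every 8C library. Defa2 was higher by 4.37 ± 0.51, Defa5 by 4.25 ± 0.77, Defa21 by 4.03 ± 0.64, Defa20 by 3.88 ± 0.67 and Defa22 by 3.87 ± 0.66, at adjusted p of 0.00325 to 0.0351 (limma), with a background of 0.272% called higher. The other 5 changed by 1.77 to 3.75 and did not pass the test (adjusted p of 0.0692 to 0.363). For 9 members the ranges were apart, and for 5.28% of all genes in this direction. Without replicate 7 of 8C, 8 members were called, and without replicate 1 of 8C -EGF, 1 was. With replicates 1 to 3 of 8C alone 9 members were called, and with replicates 4 to 7 alone 8 were. With all 10 conditions in one fit, all 10 were called. With a pseudocount of 0.1 TPM 1 member was called, and with no minimum mean fewer than 5 were.

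No member was called by limma in 8C -bFGF, 8C -GSK3i or 8C -Pex against 8C. The share of all genes called in either direction was 0.00779% for bFGF, 0% for GSK3i and 0.482% for Pexmetinib, and 713, 836 and 1676 genes had an unadjusted p under 0.05. Median changes of the members were 0.70, 0.89 and 0.99. The largest was 1.81 ± 0.87 in Defa30 without Pexmetinib (adjusted p = 0.405, limma). Ranges of the sum overlapped those of 8C in each case, and the comparisons share the 8C libraries. Without Pexmetinib, 3 of 9 other Paneth cell genes rose, Ang4 by 1.41, Mmp7 by 1.33 and Spink4 by 1.00. So did Atoh1, by 1.44, the goblet markers Muc2, by 1.72, and Tff3, by 1.06, and the tuft marker Trpm5, by 1.94.

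Other Paneth cell genes did not follow the defensins in every comparison. From a list of 10, 9 were in the table. In 8C against ENR 6 of the 9 fell, namely Mptx1 by 5.55, Mptx2 by 5.31, Lyz1 by 2.35, Clps by 1.81, Itln1 by 1.68 and Habp2 by 1.41, and the list's median was -1.68, against -5.40 for the defensins. Mptx1 and Mptx2 encode mucosal pentraxins, Lyz1 the Paneth cell lysozyme, Itln1 an intelectin and Clps colipase. Ang4, an antimicrobial angiogenin, changed by -0.99, under 2-fold (adjusted p = 0.000424), and Mmp7 by -0.45 ± 0.19 (adjusted p = 0.0827, limma). In 8C -VE against ENR, Mptx2 and Clps fell, by 2.30 and 1.80. Lyz1 was at 3608 ± 670 TPM in 8C -VE and 2940 ± 621 TPM in ENR (SD, n = 7 each), a change of 0.31 ± 0.16 (adjusted p = 0.285), and Itln1 changed by -0.01.

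In 8C against 8C -VE, Lyz1 fell by 2.65, Mptx2 by 3.01, Itln1 by 1.67 and Ang4 by 1.43. In ENR +VE, Lyz1 fell by 2.33, to 570 ± 48.4 TPM (n = 3), and Itln1 by 1.14. Set against Lyz1, the summed defensin level in ENR +VE was higher than in ENR by 0.70 on the log2 scale, while the sum itself was lower by 1.64. In 8C against 8C -VE, the ratio to Lyz1 differed by -0.29, while the sum differed by -2.95. In 8C -EGF, 1 of the 9 genes rose, Lyz1 by 1.53 ± 0.24 (adjusted p = 0.0230, limma). In 8C -V against 8C -VE, no gene of the list was called by limma.

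Genes that direct the Paneth cell fate were read next. In 8C against ENR 4 of 10 fell, Atoh1, the factor that sets up secretory cells, by 1.27, Fzd5, a Wnt receptor needed for Paneth cell maturation, by 1.35, Bhlha15 by 1.27 and Spdef by 1.17, with adjusted p of 7.15e-05 to 0.00905 (limma). In 8C against 8C -VE, Atoh1 fell by 1.62 and Spdef by 1.09, and in ENR +VE against ENR none of the 10 was called. Of 6 tested genes that process defensins or serve granule release, 1 was called in 8C against ENR, Ripk2, higher. The Notch ligand Dll1, which Paneth cells give to stem cells, fell by 1.03, as 1 of 4 niche ligands tested.

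Antimicrobial genes made mainly outside Paneth cells went the other way in part. In 8C against ENR, Reg3g rose by 4.97, to 1372 ± 985 TPM (SD, n = 7), and Reg3b by 3.56, while Reg3a fell by 5.11, and these were 3 of 4 genes tested from a list of 11. In ENR +VE, Reg3g rose by 3.85 and Reg3b by 2.66. 

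Markers of other cell types were read beside the defensin results. In 8C against ENR, 4 of 6 goblet markers fell (Zg16, Clca1, Fcgbp and Muc2), as did 3 of 4 enterocyte markers (Alpi, Apoa1 and Rbp2), the stem cell marker Olfm4, Gcg and the tuft marker Trpm5, while Neurog3 and Vim rose. In 8C against 8C -VE the same 4 goblet and 3 enterocyte genes, Gcg and Olfm4 fell, and Vim rose. In 8C -E against 8C -VE the 4 goblet genes, Alpi, Apoa1, Chga, Cck and Gcg fell. In 8C -V against 8C, Muc2, Clca1, Zg16, Apoa1, Rbp2, Cck, Olfm4 and Trpm5 rose. In none of these were any of 5 general epithelial markers called.

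In 8C against ENR +VE, the 4 goblet genes, Fabp1, Apoa1, Rbp2, Gcg, Olfm4 and Trpm5 fell, and the epithelial marker Krt18 rose. In 8C -V against 8C -VE, Olfm4 fell by 1.64 and Gcg by 3.41, while Chga and Chgb rose, the former by 1.46. In 8C -E against 8C, Chga fell by 2.96, Chgb by 1.26 and Vim by 2.23, while Olfm4 rose by 4.99 and Gcg by 1.73.

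The summed level of the 6 goblet markers was 2730 to 3895 TPM in ENR, 2165 to 5040 TPM in 8C -VE, 1183 to 3382 TPM in 8C -E and 1723 to 2764 TPM in 8C. That of the 4 stem cell markers was 1917 to 3538 TPM in ENR and 453 to 1483 TPM in 8C. Most of this sum in ENR was Olfm4, which averaged 2500.5 TPM there and 24.2 TPM in 8C. The others were not called, with changes of 0.61 in Lgr5, 0.77 in Smoc2 and -0.23 in Ascl2. In ENR +VE against ENR no goblet, enterocyte or epithelial marker was called, Gcg and Olfm4 fell and Neurog3 rose, and the goblet sum was 3121 to 3301 TPM. In 8C -VE against ENR, Rbp2 fell and no other marker was called. In 8C -EGF against 8C, Olfm4 rose by 4.41 and Vim by 2.03, while Fabp1 fell by 2.36, Rbp2 by 1.87 and Agr2 by 1.06, and the epithelial marker Cdx2 was also called lower. The part of these shifts in the defensin changes was not tested.

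Of the 12 other Defa rows, 8 passed the filter on low values in 8C against ENR, some of them only through their level in ENR, so no count of falls is given. Defa34 averaged 391 TPM in ENR, 55.2 TPM in 8C -VE, 51.0 TPM in ENR +VE and 7.71 TPM in 8C. Defa29 averaged 230 TPM, 49.1 TPM, 77.3 TPM and 4.04 TPM in the same order. By mean over organoid libraries the highest were Defa34 at 77.6 TPM, Defa29 at 55.0, Defa32 at 15.3 and Defa28 at 10.6. In crypts the highest were Defa23 at 4053, Defa36 at 3152, Defa33 at 1479 and Defa32 at 1038 TPM. Defa33 was listed at 0 in 41 of 49 organoid libraries and in no crypt library, while Defa25, Defa31 and Defa37 were listed at 0 in all crypt libraries. Defa3 and Defa17, with identical coding sequences, had means of 25.4 and 307 TPM in organoids and of 5726 and 1189 TPM in crypts. The mitochondrial gene mt-Atp8 was listed at 0 to 14.8 TPM in organoid libraries and at 52860 to 243100 TPM in crypt libraries. Whether organoid and crypt columns were quantified in the same way is not given in the sources used here.

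Crypts were compared by days after irradiation. The summed level was 26856 and 57302 TPM in the 2 normal crypt libraries, 57536 and 59866 TPM on day 1, 10593 and 15467 TPM on day 2, 22235 and 45359 TPM on day 3, and 12034 and 12606 TPM on day 5. Days 2 and 5 lay below both normal libraries, and day 3 overlapped them. The share of mitochondrial genes moved as well, with 18.1% and 12.7% in normal crypts, 31.8% and 29.7% on day 1, 39.9% and 32.6% on day 2, 48.4% and 37.9% on day 3 and 11.8% and 12.3% on day 5. Much of this share was a single gene, mt-Atp8, which lay at 52860 to 243100 TPM in crypt libraries. The part of the mitochondrial share in the results was not tested. The median change of all genes was -0.36, -0.61, -1.03 and 0.27 on days 1, 2, 3 and 5, so that member changes are best read relative to it.

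On day 1 no member was called by limma, while 6.92% of 10802 genes were and 3555 had an unadjusted p under 0.05, and the members changed by -0.19 to 0.86 with a median of 0.52. On day 2 all 10 fell, by 2.48 in Defa26 to 1.03 in Defa3, with a median of -2.15 and adjusted p of at most 0.0198, where 26.2% of all genes were called lower. Defa2 was at 3139 and 4845 TPM in normal crypts and at 844 and 942 TPM on day 2, a change of -2.13 ± 0.30 (adjusted p = 0.000113, limma). Defa3 was at 4225 and 9683 TPM in normal crypts and 2474 and 3965 TPM on day 2. The ranges were apart for all 10, and for 65.2% of all genes in this direction. Without replicate 2 of normal crypt, 4 members were called on day 2.

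On day 3, 1 member was called lower, Defa26 by 1.48 ± 0.37 (adjusted p = 0.00237, limma), where 51.3% of all genes were. The median over members was -0.50, and it turned to 0.10 with scaling to the 75th percentile and to 0.16 without mitochondrial genes, with no member called. Without replicate 2 of day 3, 5 members were called. Defa21 was at 474 and 4004 TPM in the 2 libraries of day 3, which shows how far they differed.

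On day 5, 7 members fell, Defa26 by 3.17, Defa2 by 2.27, Defa17 by 1.92, Defa5 by 1.79, Defa20 by 1.72, Defa24 by 1.57 and Defa3 by 1.51, with adjusted p of 4.08e-05 to 0.00901 (limma) and a background of 5.61% called lower. Defa21, Defa22 and Defa30 changed by -1.59, -1.58 and -1.67, with adjusted p of 0.123, 0.0580 and 0.0567. All 10 members were below both normal libraries in both libraries of day 5, as were 18.2% of all genes. The mitochondrial share was at 11.8% and 12.3% on this day and at 18.1% and 12.7% in normal crypts, and its part was not tested. The 4 days share the normal crypt libraries.

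**Figure D5:**
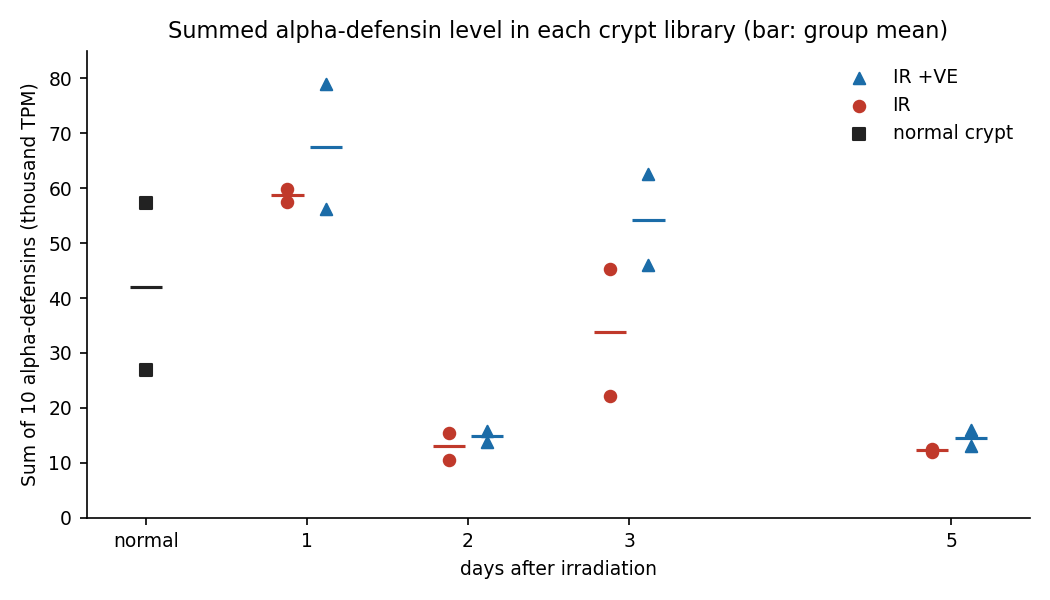
Summed TPM of the 10 alpha-defensins, on an axis in units of 1000 TPM, in each of 18 crypt libraries by day after irradiation, without (IR) and with VPA and EPZ6438 (IR +VE). Points are libraries and bars are means of 2. Days 2 and 5 lie at 10593 to 15995 TPM, below both normal libraries, at 26856 and 57302 TPM.

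With VPA and EPZ6438 after irradiation, no member was called on any day by limma. Member medians were 0.16 on day 1, 0.28 on day 2, 0.69 on day 3 and 0.21 on day 5, where all genes had medians of 0.27, 0.42, 0.69 and 0.03. The share of all genes called was 0.00926%, 8.38%, 31.7% and 0.0185%, and 1424, 3965, 6334 and 178 genes had an unadjusted p under 0.05. In +VE libraries the mitochondrial share was 23.4% and 17.4% on day 1, 29.2% and 26.3% on day 2, 41.5% and 25.4% on day 3 and 15.1% and 10.6% on day 5, and its part was not tested. The sum on day 3 was 45928 and 62639 TPM with the compounds and 22235 and 45359 TPM without, and Defa21 had the largest estimate, 1.64 ± 0.72 (adjusted p = 0.0753, limma). Without replicate 2 of IR day 3, 5 members were called on that day. Among markers of other cell types on day 3, where 31.7% of all genes were called, Muc2 was higher with the compounds by 2.56, Chgb by 2.85, Cdh1 by 2.19 and Clca1 by 1.36, and Chga, Alpi, Ptprc, Vim and Trpm5 were called higher as well. On day 2 Alpi and Ptprc were called higher, and on days 1 and 5 no marker was called by limma. The part of these shifts was not tested. Averaged over days, the change was -0.01 in Defa20 to 0.62 in Defa21, with a smallest adjusted p of 0.0638 in Defa2 and 3.55% of all genes called (6586 at an unadjusted p under 0.05). A test that the effect differs by day called no member either (smallest adjusted p 0.509), with 1.75% of all genes called and 3030 at an unadjusted p under 0.05.

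The make-up of the sum was also read in crypts. Defa2, Defa5, Defa20, Defa21 and Defa22 made up 31.8% and 39.4% of it in normal crypts, 24.3% and 25.9% on day 2 and 32.4% and 32.5% on day 5. Defa24 made up 31.6 ± 3.61% in normal crypts (SD, n = 2) and 33.9 ± 0.246% on day 5.

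Among other Paneth cell genes in crypts, 3 of 9 were called lower on day 2, where 26.2% of all genes were. Mptx2 fell by 3.50, Clps by 1.82 and Lyz1 by 1.73. Lyz1 was at 2103 and 4975 TPM in normal crypts and at 845 and 1125 TPM on day 2, and the defensin sum set against Lyz1 differed by 0.11 on the log2 scale between them. On day 5, Clps fell by 2.08, Mptx1 by 1.91, Mptx2 by 1.76 and Itln1 by 1.36, while Mmp7, the enzyme that activates cryptdins, rose by 1.15 ± 0.35 (adjusted p = 0.0231, limma). Lyz1 changed by -0.92 ± 0.39 on day 5 (adjusted p = 0.0947). Also on day 5, Reg3b rose by 2.06, Reg3g by 2.02 and Retnlb, a goblet cell product, by 4.50. S100a8 and S100a9, calprotectin genes of neutrophils, were listed at 0 in both normal crypt libraries. On day 2 they were at 1.78 and 10.0 TPM for S100a8 and 5.86 and 15.0 TPM for S100a9. They passed the filter on low values only through the irradiated groups, so no test is given.

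Markers of other cell types moved in crypts as well. On day 2, of 5 immune markers tested Itgam and Lyz2 fell, Olfm4, Ascl2 and Smoc2, which are all 3 stem cell markers tested, fell, and Apoa1, Rbp2 and Zg16 rose, by 2.35, 1.30 and 1.02. Neurog3 and Cdx2 fell and Krt18 rose. The summed level of the 4 enterocyte markers was 18220 and 21570 TPM on day 2 and 5041 and 9571 TPM in normal crypts, and that of the 4 stem cell markers was 10.1 and 14 TPM on day 2, against 223 and 416 TPM in normal crypts. On day 3, where 51.3% of all genes were called lower, 4 of 5 immune, 3 of 4 enterocyte, 3 of 6 goblet, 3 of 5 enteroendocrine, 2 of 3 stem cell and 3 of 5 general epithelial markers (Epcam, Cdh1 and Cdx2) and Vim were among them, and Krt18 was called higher.

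On day 5, Ptprc fell by 2.12, Cd3e by 2.79, Cd74 by 2.58, Lyz2 by 1.72 and Vim by 1.71, as did Chga, Cck, Gcg and Neurog3, while Agr2 and Krt18 rose. The summed level of the 6 immune markers was 103 and 109 TPM on day 5 and 494 and 818 TPM in normal crypts. The part of these shifts, and of the S100a8 and S100a9 levels, in the defensin results was not tested.

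The members moved together. Correlations between pairs of members over the means of 10 organoid conditions were 0.868 to 0.996 (median 0.942), and over 9 crypt groups 0.853 to 0.998 (median 0.955), as descriptions on log2(TPM + 1) in which members share libraries and, in part, reads. By Pearson's r with the mean log2 level of the members over the 10 conditions, the most alike of 12608 genes were Msra (0.961), Zfp407 (0.955), Samm50 (0.954), Gm44899 (0.953), Capn13 (0.944), Prelp (0.942), Gsk3a (0.937), Fpgs (0.937), Surf4 (0.935) and Clca4b (0.933). Of these, Capn13 and Clca4b spanned 4.18 and 4.43 on the log2 scale across conditions and Samm50 only 0.18. Itln1 was at rank 15 (0.924), Mptx2 at 37 (0.897), Mptx1 at 80 (0.871) and Lyz1 at 286 (0.809), and Mmp7 had 0.265.

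Over the 9 crypt groups the most alike of 10783 genes were Itln1 (0.980), Tmed6 (0.945), Clps (0.938), Lyz1 (0.938), Ang4 (0.911), Sap30 (0.886), Rasl11a (0.886), 1810041H14Rik (0.882), Olfr338 (0.871) and Gm15491 (0.870). In crypts 4 of the 10 were thus genes of the Paneth cell list, and in organoids none was. With so few points per correlation the order of such genes is loose.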

How the data were processed

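RNA-seq libraries of organoids (49, in 10 groups) and of crypts (18, in 9 groups) were read from a table of TPM values that the authors deposited, with 1 column a library and 0 columns left unused. The submitters' processing notes name Trimmomatic 0.39, STAR 2.7.3a, featureCounts and the mm10 genome. How the authors turned counts into TPM and treated reads that fit several genes is not given in the sources used here. TPM keeps no depth, so no counting interval can be given.

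Values were taken as log2(TPM + 1), genes whose mean over a fit's libraries reached 1 TPM were kept, and groups were compared with limma 3.58.1 in R 4.3.3 (eBayes with trend and robust), with Benjamini-Hochberg adjustment over all genes tested. Each organoid comparison was fitted on its own groups, and all 18 crypt libraries in 1 fit. A gene was called where the adjusted p was below 0.05 and the groups differed 2-fold or more. Levels, sums, likeness and sequences were computed with python 3.11.15, numpy 2.4.6, pandas 2.3.3 and biopython 1.88, and figures with matplotlib 3.10.9. The fitting code was tested on simulated data.

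All 10 members are named in the text. Other Defa genes are given as counts with the 4 highest by mean TPM, listed genes as counts with examples, and the 10 genes most like the members by Pearson's r. The members and lists were chosen with earlier results of these data known.

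Samples with the same replicate number deviated together, with every pair above 0.1 in correlation, for 8C -VE and ENR (0.313 to 0.642), 8C -E and 8C -VE (0.647 to 0.775), 8C -V and 8C -VE (0.69 to 0.774) and 8C -V and 8C (0.106 to 0.598). The pairing rests on this check, since the labels give only the number. Libraries of different numbers were not correlated. A shift shared by replicates 1 to 3 or 4 to 7 could also give such values, so the check does not establish pairing. Alternatives were a pseudocount of 0.1 TPM, a minimum mean of 5 TPM or none, quantile and 75th percentile scaling, scaling without defensins, leaving out mitochondrial genes, plain eBayes, other groups in the fit, replicate numbers 1 to 3 or 4 to 7, a replicate block, each library left out in turn, no minimum fold, a sum over all Defa genes and a ratio to Lyz1.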

Additional observations from a re-analysis of the deposited data

Results flagged for a closer look

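In groups of 6 or 7 libraries, 8 of 55 checks found the lowest or highest library far from its neighbour for its group, where chance gives about 1 in 20 for a single check. The checks are not independent, since they are on 10 genes that move together and their own sum in the same 5 groups. All 8 concern replicate 7, and 6 of them the same library of 8C. The value given for each is the gap to the nearest other library as a share of the group's whole range.

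In 8C, replicate 7 was the lowest library for Defa30 (0.723, at 5.06 TPM against 71.4 to 186 in the other 6), Defa5 (0.677, listed at 0 against 7.39 to 22.2), Defa22 (0.667, listed at 0 against 5.11 to 14.1), Defa20 (0.622, listed at 0 against 5.46 to 19.1) and Defa26 (0.618, at 1.35 TPM against 10.8 to 31.0). The sum over the 10 members was the lowest as well (0.578, 162 TPM against 671 to 1889). Defa3 was lowest in replicate 7 of 8C -E (0.607, listed at 0, against 4.99 TPM or more in the other 6) and in replicate 7 of 8C -VE (0.601, 19.4 TPM against 36.1 to 54.2). The cause was not tested.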

How the results depend on the processing

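Of 2669 values of single members under the alternatives, 2458 kept their direction and side of the threshold, 153 lost the call, 58 gained it and 0 changed direction. These cover the members called in each comparison and, outside 8C -E against 8C and IR day 3, the others in the same comparisons. Comparisons in which no member was called are not among them. The medians given below show where members not called changed direction. Every count below is of the 10 members called. In 8C -VE against ENR all 10 were called with no minimum fold. In 8C -V against 8C, 6 were called with a pseudocount of 0.1 TPM and 4 within replicates 1 to 3. In 8C -E against 8C, 1 was called with scaling to the 75th percentile, a minimum of 5 TPM, no minimum mean or plain eBayes, 4 with all organoid groups in the fit, and 0 within replicates 1 to 3, where the median was -0.30. In 8C against ENR +VE, 3 were called with a pseudocount of 0.1 TPM. In 8C -EGF against 8C, the count was 1 with that pseudocount, 2 with no minimum mean, 10 with all organoid groups, 9 within replicates 1 to 3 of 8C and 8 within replicates 4 to 7. In 8C -bFGF, 8C -GSK3i and 8C -Pex against 8C, 1 member was called within replicates 1 to 3 of 8C. The cause of these shifts was not tested.

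In crypts, on IR day 3 against normal crypt, 0 were called with quantile normalization, 0 with scaling to the 75th percentile (median 0.10) and 0 without mitochondrial genes (median 0.16). The day 1 median with VPA and EPZ6438 turned to -0.017 with scaling to the 75th percentile and to -0.062 without mitochondrial genes. On day 3 with the compounds, 3 were called with plain eBayes and 2 with 2 groups in the fit. As a ratio to Lyz1, the summed level differed by -1.53 on the log2 scale in 8C against ENR, -0.29 in 8C against 8C -VE, 0.70 in ENR +VE against ENR, 0.11 on IR day 2 and -0.75 on IR day 5, where the sum itself differed by -3.88, -2.95, -1.64, -1.62 and -1.67.

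With the replicate number as a block, 7 members were called in 8C -V against 8C -VE, 3 in 8C -E against 8C, 6 in 8C against ENR +VE, 9 on IR day 5, 3 on IR day 3 with the compounds, and 1 each in 8C -bFGF, 8C -GSK3i and 8C -Pex against 8C, and the count changed in no other comparison. Outside the 4 organoid comparisons where libraries of the same number deviated together, the libraries share only a number. In the deposited order of columns, 8C -EGF, 8C -bFGF, 8C -GSK3i and 8C -Pex stand among 8C libraries of other numbers. Their mean correlations with 8C libraries of the same number were -0.185 to -0.0404. Crossed pairing of crypt replicates on days 1 and 2, added after seeing the data, called 0 and 10.

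With each library left out in turn, counts were 1 to 2 in 8C -E against 8C, 1 to 8 in 8C -EGF against 8C, 2 to 10 in 8C against ENR +VE, 4 to 10 on IR day 2, 0 to 5 on IR day 3, 5 to 8 on IR day 5 and 0 to 5 on day 3 with the compounds. Medians ran from -0.018 to 1.07 on IR day 1, from -1.10 to 0.080 on IR day 3 and from -0.022 to 0.34 on day 1 with the compounds. A crypt group left with 1 library is assumed to vary like the other groups. Shared reads between near-identical genes and the unknown depth limit single values.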
